A study of Mus musculus with 12 samples.

Results

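The 10 mouse genes described here encode core members of the BCL2 family, which sets whether a cell keeps its mitochondria intact or dies by apoptosis. They were chosen by name and not by their values: every probe whose transcript accession RefSeq assigns to Bcl2, Bcl2l1, Mcl1, Bax, Bak1, Bad, Bid, Bcl2l11, Bbc3 or Pmaip1 was taken, which gave 13 probes for 10 genes among 19801 genes kept. Bcl2l1, Mcl1 and Bad had 2 probes each, and the brighter one stands for the gene unless the second is named. All 13 probes were well above background on all 12 arrays.

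Messenger RNA was measured on 1-colour Agilent arrays in primary microglia, the resident macrophages of the brain, shaken off mixed glial cultures that were made from brains of neonatal C57BL/6 mice. The 3 groups were microglia given Th1 supernatant (Th1), microglia given Th17 supernatant (Th17) and microglia kept in T cell culture medium (labelled untreated), each for 16 h and each with 4 arrays. In the study's methods, Th1 supernatant and control medium were each mixed with as much DMEM before use, in a passage written mainly for astrocytes. Th1 supernatant came from CD4+ T cells of the same strain, restimulated through CD3 and CD28 after polarisation towards Th1, so that a supernatant is a mixture of cytokines and no single agent; how the Th17 cells were polarised is not given in the sources used here. Each of 4 independent experiments, numbered 12, 13, 14 and 16, contributed 1 array to each group, and the 12 arrays lay on 3 slides of 4.

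The products of Bcl2, Bcl2l1 (BCL-XL) and Mcl1 are pro-survival proteins that hold the pore-forming effectors BAX and BAK in check. The BH3-only proteins, here BAD, BID, BIM (Bcl2l11), PUMA (Bbc3) and NOXA (Pmaip1), bind the pro-survival proteins or the effectors and set the effectors free. Once BAX or BAK opens the outer mitochondrial membrane, cytochrome c leaves, the apoptosome forms on APAF1 and caspases are activated. Many of these steps are controlled at the protein level, by cleavage, phosphorylation, splicing or turnover, which a messenger RNA array does not see; the long and short forms of Bcl2l1, which have opposite roles, were not told apart.

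Bak1, Bcl2 and Bid were the members that rose after Th1 supernatant, and the 250 bases before their RefSeq transcription starts are shown for that reason. Coordinates are on the GRCm38.p6 build, and all 3 genes lie on the minus strand: Bak1 at chr17:27028628-27028877, Bcl2 at chr1:106714291-106714540 and Bid at chr6:120916825-120917074. Capitals mark the only match to any of 3 motifs searched on both strands, an NF-kappaB core (GGGA and CC with 4 free bases between them, here on the other strand) whose first printed base is 78 bases before the Bak1 start.
Bak1: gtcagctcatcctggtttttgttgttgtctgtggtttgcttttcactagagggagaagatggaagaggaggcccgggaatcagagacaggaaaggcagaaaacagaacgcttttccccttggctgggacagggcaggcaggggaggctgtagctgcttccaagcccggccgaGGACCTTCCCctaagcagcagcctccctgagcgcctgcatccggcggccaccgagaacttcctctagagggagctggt
Bcl2: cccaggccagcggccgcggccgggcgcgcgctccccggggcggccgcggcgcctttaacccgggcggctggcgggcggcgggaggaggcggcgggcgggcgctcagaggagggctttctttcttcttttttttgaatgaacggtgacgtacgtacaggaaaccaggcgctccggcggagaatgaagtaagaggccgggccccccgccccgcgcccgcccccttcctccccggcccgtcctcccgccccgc
Bid: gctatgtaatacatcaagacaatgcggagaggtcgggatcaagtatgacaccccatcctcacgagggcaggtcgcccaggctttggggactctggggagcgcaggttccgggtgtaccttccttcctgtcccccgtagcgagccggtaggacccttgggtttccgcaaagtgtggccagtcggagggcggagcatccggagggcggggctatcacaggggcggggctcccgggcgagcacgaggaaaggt
Neither a GAS motif (TTC and GAA with 3 free bases between them), which STAT dimers bind, nor an ISRE core (GAAA and GAAA with 2 free bases between them), which interferon regulatory factors bind, was found in these windows. Over 32851 promoter windows of 250 bases, 17.6% held the NF-kappaB core, 7.02% the GAS motif and 2.98% the ISRE core. Among members that did not rise, Bbc3 (-0.08 ± 0.15 log2 units, Th1 against untreated) held 2 NF-kappaB cores, 198 and 137 bases before a RefSeq start. A match of letters is a description and no evidence of binding. The windows also differed in base composition, with 58.4% G or C for Bak1, 74.8% for Bcl2 and 63.6% for Bid.

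The arrays were alike in depth of signal, with 54.49% to 64.99% of probes well above background. All 11 microglial markers on the array, among them Csf1r, Aif1 and Itgam, were well above background on all 12 arrays. Markers of other cells were in part above background too: on all 12 arrays for 4 of 10 astrocyte markers (Aqp4, Aldh1l1, Aldoc and Fabp7), 7 of 10 of the oligodendrocyte lineage, 3 of 7 of neurons, 5 of 8 of T cells (Cd3e, Cd4, Lck, Cd5 and Cd28), 3 of 7 of neutrophils and monocytes (Elane, S100a8 and Camp) and 6 of 11 of fibroblasts, mural and endothelial cells. On 0 arrays were Gja1 and Sox9 of astrocytes, Pdgfra of the oligodendrocyte lineage, Cd3d, Cd3g and Cd8a of T cells, Mpo and Ngp of neutrophils, and Lum of fibroblasts.

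The summed signal of 4 of these 7 lists did not overlap between Th1 and untreated microglia, as held for 40.7% of all single genes. A sum follows the brightest genes of its list. Markers of fibroblasts, mural and endothelial cells summed to 8323 to 12040 units in Th1, 2705 to 4251 in Th17 and 2890 to 4498 in untreated microglia, and among them Vwf, of endothelial cells and platelets, spanned 214.1 to 7709 units over the arrays. Lower in Th1 were the sums for neurons (4243 to 5599 units in Th1, 5885 to 10820 in Th17, 6115 to 16240 in untreated), T cells (7440 to 8609, 6518 to 11060 and 9799 to 11200 in the same groups) and neutrophils and monocytes (4103 to 7641, 5987 to 11240 and 8353 to 10660). The other 3 lists overlapped: microglia with 904800 to 1041000 units in Th1, 992200 to 1449000 in Th17 and 984500 to 1370000 in untreated, astrocytes with 4185 to 5780, 4113 to 11900 and 4946 to 12020, and the oligodendrocyte lineage with 14410 to 21020, 15360 to 20620 and 16310 to 32690. Gene by gene (limma, adjusted p under 0.01), 1 of 5 neuron markers kept was higher in Th1 than untreated (Syn1, 1.78 ± 0.37). Another 1, Rbfox3, was lower by at least 3.85-fold, a bound, since it was well above background on 0 Th1 arrays. Snap25, by far the brightest neuron marker (3975 to 15940 units over the arrays), did not pass (-0.89 ± 0.30, limma, adjusted p = 0.0299). Of 5 T cell markers 1 was higher (Lck, 2.35 ± 0.25) and 2 lower, Cd28 the most (-5.28 ± 0.48). For neutrophils and monocytes 1 of 4 was lower and 0 higher. For fibroblasts, mural and endothelial cells 2 of 8 were higher and 0 lower. The part of these markers in the results below was not tested. In such bulk samples fewer cells that express a gene and less RNA per cell cannot be told apart.

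Th1 supernatant changed 4 of the 10 genes past the threshold (limma, Benjamini-Hochberg adjusted p under 0.01): Bcl2, Bak1 and Bid rose and Bax fell, a fall that depended on how the arrays were scaled. The same threshold was passed by 30.1% of all genes tested, 13.9% higher and 16.2% lower, so that 4 of 10, or 40%, is near what the whole array did. Bcl2 and Bak1 also exceeded a 2-fold change, 2 of 10 against 15.4% of all genes. The 4 arrays of each group did not overlap for 4 of the 10 members, 40% against 40.7% of all genes. The median change of the members was 0.11 on the log2 scale and that of all genes was -0.06. By side, 1 of the 3 pro-survival genes rose and 0 fell, while 2 of the 7 pro-death genes rose and 1 fell.

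**Figure D1:**
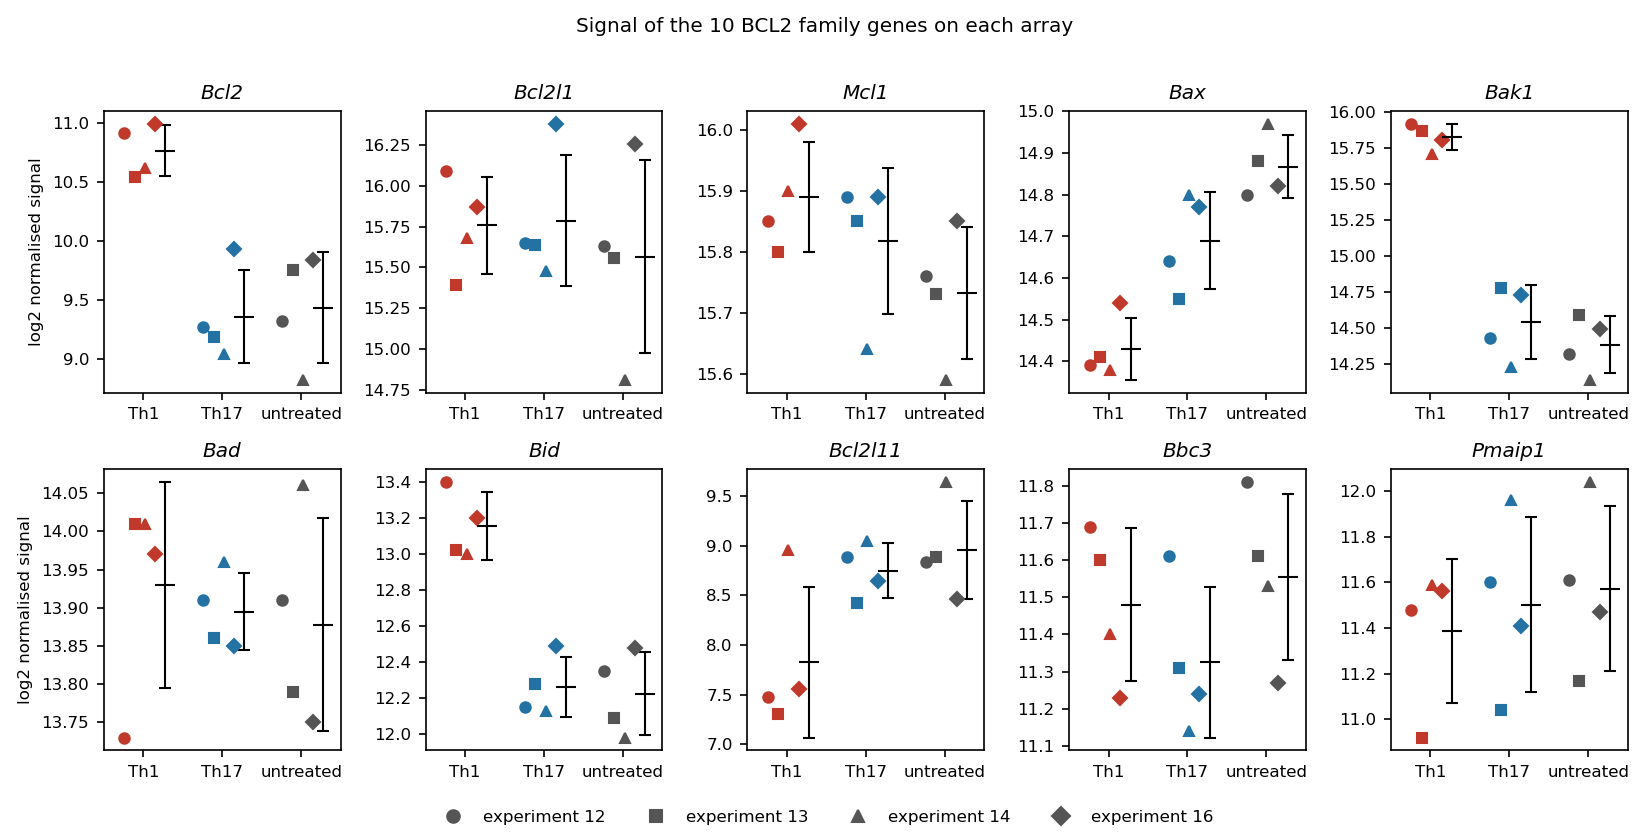
Log2 normalised signal of each of the 10 genes (vertical axis, a separate scale in each panel) on the 12 arrays, by group; the marker shape gives the experiment, and the bar beside each group gives its mean ± SD (n = 4). The Th1 arrays of Bcl2, Bak1 and Bid lie above all others and those of Bax below all others, while the other 6 genes overlap between groups.

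Among the pro-survival genes, only Bcl2 passed. Its signal was 1920, 1487, 1576 and 2035 units in Th1 microglia of experiments 12, 13, 14 and 16, against 615.9, 580.7, 524.9 and 973 in Th17 and 640.1, 858.6, 452.8 and 917.8 in untreated microglia. Every Th1 array was above every other array, and the Th17 and untreated arrays were mixed. Bcl2 rose 2.52-fold with Th1 supernatant, by 1.33 ± 0.25 (SE) on the log2 scale (limma, adjusted p = 0.00107), and within experiments the rise ranged between 0.79 in experiment 13 and 1.80 in experiment 14.

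Mcl1 encodes a short-lived pro-survival protein. Its brighter probe gave 59110, 57200, 61180 and 66190 units in Th1, 60820, 59040, 51130 and 60900 in Th17 and 55650, 54480, 49340 and 59070 in untreated microglia. The groups overlapped, although the Th1 array was the higher in 4 of 4 experiments, and the difference of 0.16 ± 0.10 between Th1 and untreated microglia did not pass (limma, adjusted p = 0.21). The dimmer probe gave 17910, 13350, 16130 and 14770 units in Th1, 13360, 10140, 9724 and 13020 in Th17 and 14330, 10140, 9803 and 13140 in untreated microglia. Its difference between Th1 and untreated microglia was 0.40 ± 0.16 and also did not pass (limma, adjusted p = 0.0643).

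Bcl2l1 spread widely within every group. It read 69680, 42950, 52380 and 60090 units in Th1, 51460, 51040, 45560 and 85030 in Th17 and 50810, 48230, 28660 and 78220 in untreated microglia. Its lowest array was untreated in experiment 14 and its highest Th17 in experiment 16, so that the groups lay within one another. The difference between Th1 and untreated microglia was 0.19, with a 95% interval of -0.44 to 0.83 (limma, adjusted p = 0.616), which leaves room for a change in either direction. The second probe gave a like value of 0.17 ± 0.32, over signals between 712.2 and 2002 units.

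After quantile normalisation, the scaling used unless another is named, the 2 effectors moved in opposite directions. Bak1 read 62080, 59880, 53540 and 57290 units in Th1 microglia, 22050, 28140, 19260 and 27160 in Th17 and 20480, 24690, 18070 and 22990 in untreated microglia. The lowest Th1 array was well above the highest of the other 8, and Bak1 rose 2.71-fold with Th1 supernatant (1.44 ± 0.14, limma, adjusted p = 1.12e-05). The rise was of like size in all 4 experiments, between 1.28 and 1.60, and it was the member with the smallest p.

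Bax read 21490, 21710, 21260 and 23800 units in Th1 microglia, 25530, 24050, 28520 and 27890 in Th17 and 28480, 30160, 32110 and 28830 in untreated microglia. The groups of Th1 and untreated microglia did not overlap, and the Th17 arrays lay between them with a single value past the lowest untreated one. Bax fell by 0.44 ± 0.09 on the log2 scale in Th1, to 0.738 of the untreated level (limma, adjusted p = 0.00223). Without the 3 arrays of experiment 14 the difference was -0.39 and did not pass (limma, adjusted p = 0.0188). The centred level of Bak1 minus that of Bax was 1.14 ± 0.12 in Th1, -0.40 ± 0.33 in Th17 and -0.74 ± 0.25 in untreated microglia (log2, SD, n = 4 each).

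With slide as a block, Th1 against untreated was 1.43 for Bcl2, 1.45 for Bak1, 0.97 for Bid and -0.44 for Bax, and each passed. Within slides 1, 2 and 3 the difference was 1.37, 1.76 and 1.15 for Bcl2, 1.47, 1.65 and 1.32 for Bak1, 1.18, 1.03 and 0.73 for Bid, and -0.45, -0.58 and -0.28 for Bax, from 1 or 2 arrays a group.

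The rise of Bak1 passed under each scaling, but the call for Bax did not hold. With each array divided by its 75th percentile and no quantile step, Bax read 24640, 24060, 25600 and 25580 units in Th1, 22940, 22300, 26120 and 26570 in Th17 and 26910, 27880, 29700 and 27500 in untreated microglia, a difference between Th1 and untreated of -0.16 ± 0.09 (limma, adjusted p = 0.163). Under the same scaling Mcl1 differed by 0.40 ± 0.10 (limma, adjusted p = 0.00698), and its Th1 arrays read 67150, 65340, 71430 and 70770 units against 53620, 51260, 46300 and 56940 in untreated microglia. Both are bright genes, and the Th1 change of the 3931 genes with a mean log2 signal of 13 or more had a median of 0.07 under that scaling and -0.13 after quantile normalisation. The median over all genes was -0.06 under both.

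**Figure D2:**
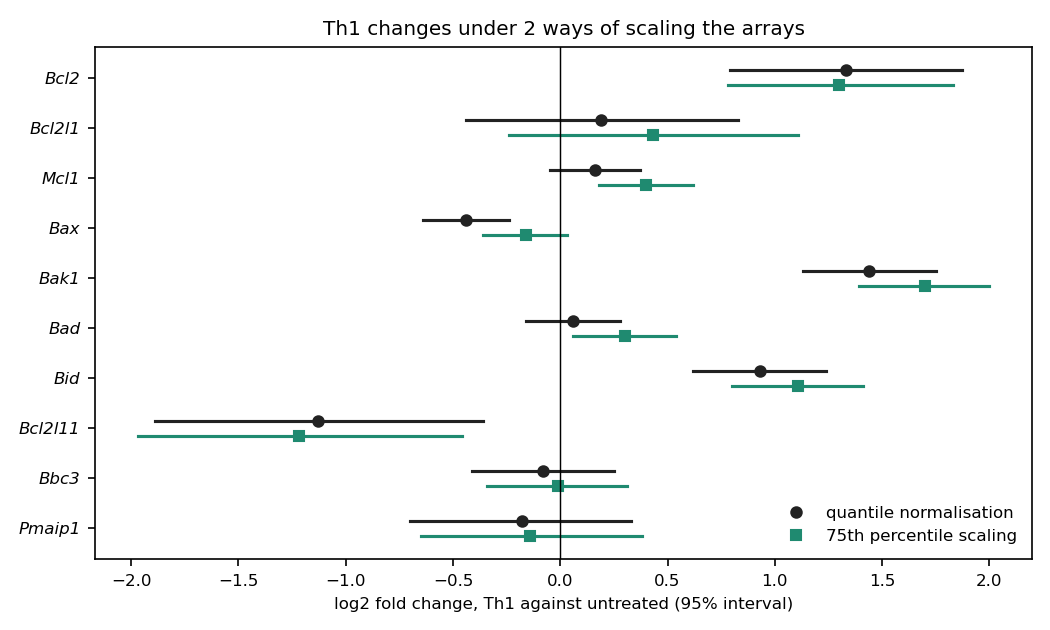
Log2 fold change of the 10 genes in Th1 against untreated microglia (points, with 95% intervals of the limma fit) after quantile normalisation (circles) and after 75th percentile scaling alone (squares). Bright genes such as Mcl1, Bax, Bak1 and Bad lie between 0.24 and 0.27 further to the right under 75th percentile scaling, and the dim Bcl2 and Bcl2l11 lie slightly to the left.

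Of the 5 BH3-only genes, Bid passed. BID is cut by caspase-8 and then links death receptors to mitochondria. Bid read 10800, 8296, 8206 and 9422 units in Th1, 4545, 4983, 4481 and 5767 in Th17 and 5213, 4349, 4040 and 5695 in untreated microglia, with no overlap between Th1 and the rest. It rose 1.91-fold (0.93 ± 0.14, limma, adjusted p = 0.000282), just under the 2-fold limit, and was higher in 4 of 4 experiments. Under 75th percentile scaling the change was 1.11 (limma, adjusted p = 6.57e-05), which is over 2-fold, so that 3 of 10 members then exceeded the limit, against 15.8% of all genes.

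Bcl2l11, whose product BIM binds all pro-survival members, differed by -1.13 ± 0.35 between Th1 and untreated microglia and did not pass (limma, adjusted p = 0.0218). It read 178.3, 159, 495.3 and 188.8 units in Th1, 470.6, 341.6, 528.5 and 398.7 in Th17 and 455.6, 471.4, 795.9 and 351.8 in untreated microglia. The Th1 array of experiment 14 stood apart from the other 3 and was alone in overlapping the untreated arrays, yet it was below the untreated array of its own experiment, as in all 4 experiments (-1.57 to -0.68). With experiment as a block the adjusted p was 0.00173, and 5 of the 10 members then passed, against 40.5% of all genes. Without the Th1 array of experiment 14 the difference was -1.50 (limma, adjusted p = 0.000893), and without all 3 arrays of that experiment it was -1.27 (limma, adjusted p = 0.000578).

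Bad, Bbc3 and Pmaip1 did not pass. Bad, a BH3-only gene whose product is held inactive by phosphorylation, read 13580, 16530, 16490 and 16080 units in Th1, 15410, 14910, 15930 and 14790 in Th17 and 15360, 14140, 17030 and 13740 in untreated microglia. Its second probe lay between 918.3 and 1393 units and differed by 0.03 ± 0.16 between Th1 and untreated microglia (limma, adjusted p = 0.883). For the brighter probe the 95% interval for Th1 against untreated was -0.16 to 0.28. The p53 targets Bbc3 and Pmaip1 differed by -0.08 ± 0.15 and -0.18 ± 0.23 between Th1 and untreated microglia (limma, adjusted p = 0.704 and 0.554), with overlapping groups.

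**Figure D3:**
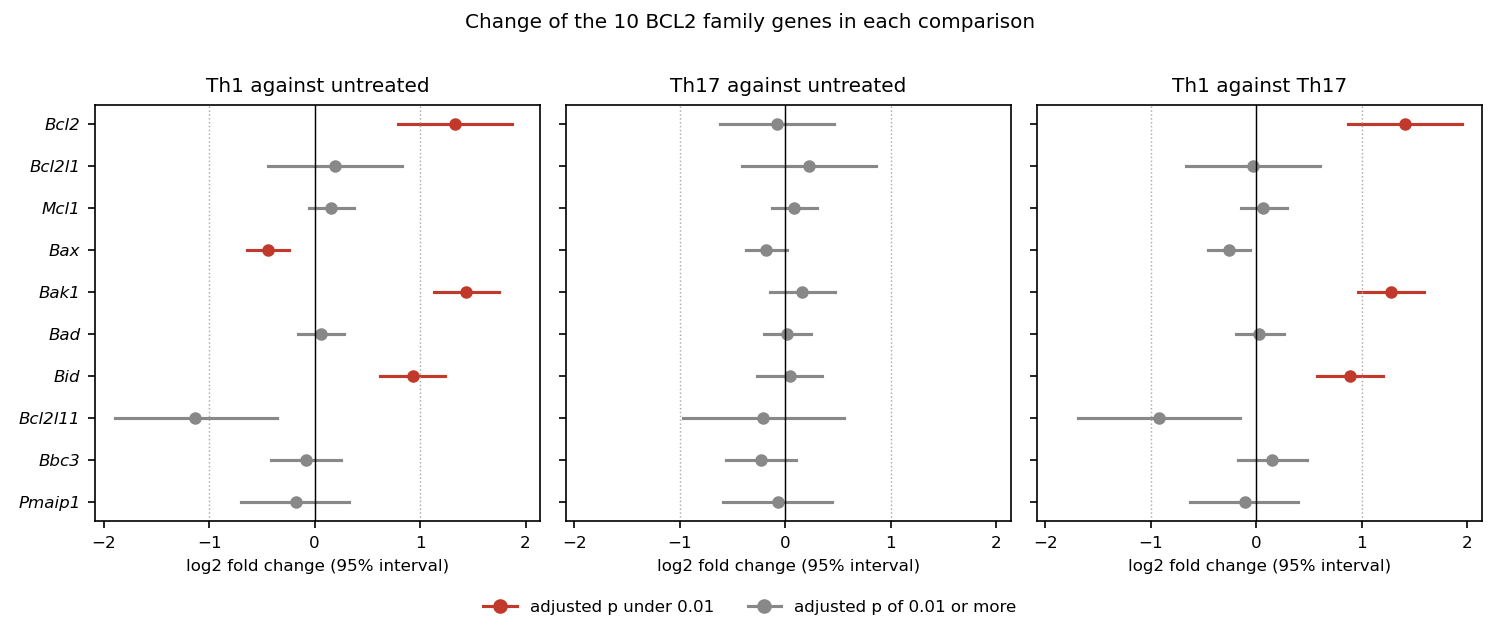
Log2 fold change with 95% interval (horizontal axis, limma fit) of the 10 genes in Th1 against untreated, Th17 against untreated and Th1 against Th17; red marks an adjusted p under 0.01 and dotted lines a 2-fold change. In Th17 against untreated all 10 points lie between -0.23 and 0.22 and all intervals include 0.

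Th17 supernatant changed 0 of the 10 members, and 0% of all genes passed in that comparison by limma, with 1.64% of genes at an unadjusted p under 0.05 and none of the members among them. Its groups did not overlap for 0 of the 10 members, against 0.98% of all genes. The member with the smallest p was Bax (-0.18 ± 0.09, unadjusted p = 0.077). Member differences between Th17 and untreated microglia lay between -0.23 for Bbc3 and 0.22 for Bcl2l1. The 95% intervals exclude a 2-fold change in either direction for each member, being widest for Bcl2l11, at -0.97 to 0.56, and Bcl2l1, at -0.41 to 0.86. They do not exclude smaller changes, and a p that misses the threshold does not show that the 2 groups were alike.

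Set against Th17 directly, Th1 microglia were higher for Bcl2 by 1.41 ± 0.25 (adjusted p = 0.000763), for Bak1 by 1.28 ± 0.14 (adjusted p = 3.07e-05) and for Bid by 0.89 ± 0.14 (limma, adjusted p = 0.000414). These were 3 of 10 members, against 29.2% of all genes that passed in either direction and 13.4% that passed and were higher. The groups did not overlap for 4 of the 10 members, against 41.1% of all genes. Bax differed by -0.26 ± 0.09 and did not pass (limma, adjusted p = 0.0349), and under 75th percentile scaling its difference was 0.03. Bcl2l11 differed by -0.92 ± 0.35 (limma, adjusted p = 0.0525), and with experiment as a block the adjusted p was 0.0052, making 4 of 10 members that passed, against 39.1% of all genes. Without the Th1 array of experiment 14 it was -1.29 (limma, adjusted p = 0.00235). The comparisons with untreated microglia share the same 4 untreated arrays, so they are not independent of each other.

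For several members the level followed the experiment more than the supernatant. The supernatant group accounted for 93.6% of the sum of squares over the 12 arrays for Bak1, 86.6% for Bid, 83.9% for Bax and 80% for Bcl2, but for 5.7% for Pmaip1, 6.11% for Bcl2l1 and 5.2% for Bad, against a median of 46% over all genes. The experiment accounted for 86.1% for Pmaip1, 69% for Bbc3 and 62.7% for Bcl2l1, against a median of 26.5%. These shares are a description with no test. Experiment was also partly tied to slide, with all arrays of experiment 12 on slide 1 and all of experiment 16 on slide 3.

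**Figure D4:**
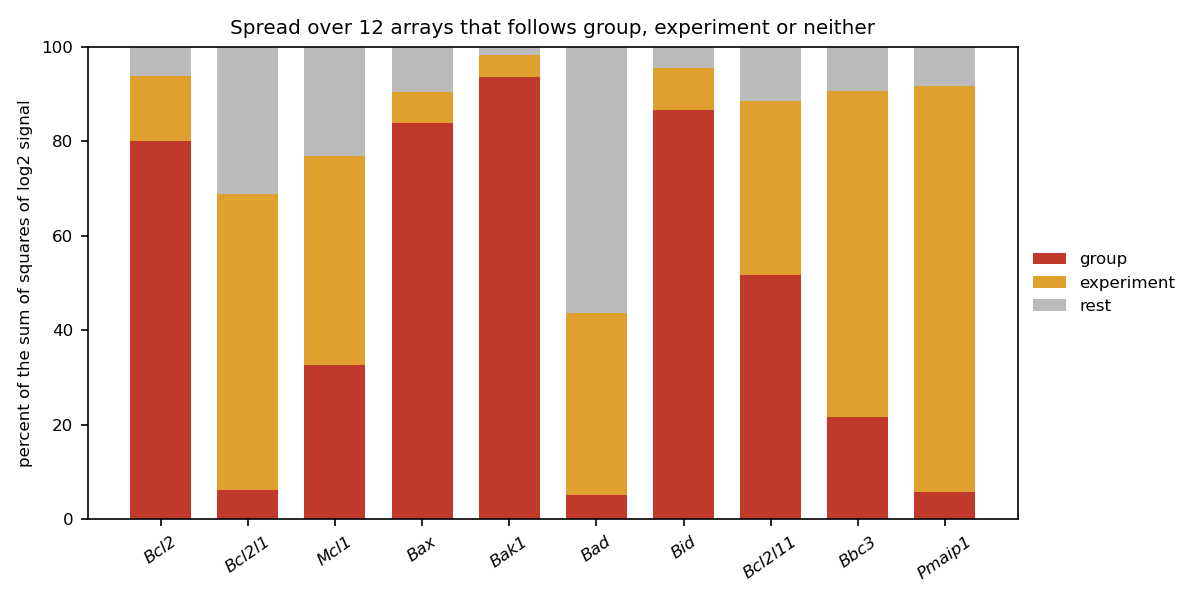
Share of the sum of squares of log2 signal over 12 arrays (vertical axis, percent) that follows the 3 groups, the 4 experiments or neither, for each of the 10 genes. Group takes at least 80% for Bcl2, Bax, Bak1 and Bid, and experiment takes over 60% for Bcl2l1, Bbc3 and Pmaip1.

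Pmaip1 shows the pattern most clearly. It read 2866, 1934, 3090 and 3023 units in Th1, 3095, 2099, 3996 and 2720 in Th17 and 3118, 2308, 4218 and 2845 in untreated microglia. The array of experiment 13 was the lowest in each group and that of experiment 14 the highest. Bbc3 read 3310, 3106, 2698 and 2396 units in Th1, 3124, 2534, 2260 and 2418 in Th17 and 3593, 3132, 2956 and 2473 in untreated microglia, with experiment 12 the highest in each group. Over the 3 arrays of an experiment, Bcl2l11 averaged 0.70 above its mean in experiment 14, Bcl2l1 0.38 below and Bcl2 0.36 below. By mean centred log2 level, in which each gene of a list counts alike, 3 marker lists were also highest in experiment 14 within each group. These were astrocytes (0.47 in Th1, 0.63 in Th17 and 1.01 in untreated microglia), neurons (0.40, 0.46 and 0.72) and the oligodendrocyte lineage (0.21, 0.50 and 0.74). By summed signal, astrocytes were instead highest in experiment 16 in each group (5780, 11900 and 12020 units). The neuron and oligodendrocyte sums were highest in experiment 14 in Th17 and untreated microglia, but in Th1 in experiments 13 (5599) and 12 (21020). The part of these markers in these levels was not tested.

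The mean centred level of the 3 pro-survival genes minus that of the 7 pro-death genes was 0.40, 0.17, 0.05 and 0.45 in Th1, -0.15, -0.06, -0.38 and 0.33 in Th17 and -0.24, -0.04, -0.84 and 0.30 in untreated microglia (log2). The groups averaged 0.27 ± 0.19, -0.06 ± 0.29 and -0.21 ± 0.48 in that order (SD, n = 4 each) and overlapped. The mean difference of 0.47 between Th1 and untreated microglia became 0.26 without the untreated array of experiment 14, and that of 0.14 between Th17 and untreated became -0.07 without the same array, 0.31 without the untreated array of experiment 16 and 0.01 without the Th17 array of experiment 16. The Th1 array was above the untreated array in each experiment. The difference between Th1 and untreated averages over 3 genes on one side and 7 on the other. It hides members that went opposite ways, such as Bak1 and Bax, though the call for Bax depended on the scaling.

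The genes whose centred level over the 12 arrays was closest to that of a member were sought for the 3 members with the widest range of group means. For Bak1 they were Aida, Mppe1 and Cers3, with a root mean square difference of 0.133 to 0.138 log2 units, against a median of 0.751 over all genes. For Bcl2 they were Ifi30, a thiol reductase of antigen processing, with Prss46 and Gmppb (0.183 to 0.214, median 0.801). For Bcl2l11 they were Iglon5, the tetraspanin gene Cd81 and the glutathione reductase gene Gsr (0.225 to 0.265, median 0.746). With 12 arrays such likeness says only that the levels ran together.

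The list of apoptosome and executioner genes also held genes of the inhibitor of apoptosis family, not all of which act downstream of the mitochondria. Of its 16 genes reported here, 7 rose with Th1 supernatant and 4 fell, 43.8% and 25% of the list against 13.9% and 16.2% of all genes. The median change of the list was 0.21, against -0.06 over all genes. Those that rose by over 2-fold were Birc3 (2.20 ± 0.26), the apoptosome scaffold Apaf1 (1.42 ± 0.32), the mitochondrial nuclease Endog (1.32 ± 0.11), Birc2 (1.24 ± 0.11) and cytochrome c, Cycs (1.09 ± 0.13). Birc2 and Birc3 encode ubiquitin ligases of the inhibitor of apoptosis family, so the genes that rose included both inhibitors and effectors of death. Those that fell by over 2-fold were Birc5, a mitotic protein also of that family (-2.19 ± 0.35), and Parp1, a caspase substrate (-1.13 ± 0.22). The initiator caspase gene Casp9 did not pass (-0.28 ± 0.13, limma, adjusted p = 0.0934). Xiap (-0.37) and Htra2 (-0.59) also fell, calls that were lost under 75th percentile scaling, where the list had 7 genes higher and 2 lower. Under that scaling 29.5% of all genes passed in either direction.

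Of the other BCL2 homologues and BH3 genes, 18 of 24 were kept, 5 rose and 1 fell, together 33.3%, near the 30.1% of all genes. Their median change was 0.34. Bcl2l14, a homologue of uncertain role in apoptosis, had the largest change of that list (3.45 ± 0.53, limma, adjusted p = 0.000296), followed by the ER membrane protein gene Tmbim6 (1.07 ± 0.14). The mitochondrial channel gene Vdac2 (0.64), the BAX partner gene Moap1 (0.62) and the pro-survival homologue Bcl2l2 (0.58) rose by less than 2-fold, and the BH3-only gene Bik fell by 0.85. With experiment as a block, and likewise under 75th percentile scaling, 8 of these genes were higher and 1 lower, 50% of the list. Of all genes, 40.5% passed with the block and 29.5% under that scaling. The pro-survival genes Bcl2a1c (0.54 ± 0.30) and Bcl2a1d (0.52 ± 0.15) did not pass in the main fit of Th1 against untreated. Bcl2a1d passed with the block (limma, adjusted p = 0.00906) and under 75th percentile scaling (0.63, limma, adjusted p = 0.00732). It also passed in the main fit of Th1 against Th17 (0.69 ± 0.15, limma, adjusted p = 0.00342). Near-identical copies of that gene cannot be told apart by these probes.

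Of 15 genes kept in the list of p53 and its targets, 0 rose and 3 fell: Sesn1 (-2.58 ± 0.20), Trp53inp1 (-1.50 ± 0.25) and Zmat3 (-1.28 ± 0.23). The list does not hold every p53 target, and genes placed among the members or in another list were not counted in it. The 3 that fell are 20% of the list, against 16.2% of all genes that fell. The 0% that rose compares with 13.9% of all genes, and in either direction 30.1% of all genes passed. The median change of the list was -0.27. Trp53 itself (-0.16 ± 0.23), Cdkn1a (0.02 ± 0.21) and Mdm2 (0.30 ± 0.21) did not pass, nor did the p53 targets Bbc3 and Pmaip1. With experiment as a block 6 of the list, or 40%, were lower and 0 higher. Of all genes, 40.5% passed with the block in either direction. Among 28 regulators of BH3 genes and of MCL1 turnover, 4 rose and 4 fell, together 28.6%, about the share of all genes, with a median change of 0.19. The kinase gene Pim1 (2.16 ± 0.31) and Stat3 (1.58 ± 0.14) rose by over 2-fold and Stat5a (0.88) and Stat5b (0.69) by less, while Foxo1 (-0.68), a transcription factor that can drive Bcl2l11, fell with Dynll2, Akt1 and Gsk3b. Under 75th percentile scaling 7 of this list were higher and 2 lower, against 29.5% of all genes that passed in either direction. Akt1 and Gsk3b then no longer passed. In Th17 against untreated microglia 0 genes of these 4 lists passed.

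**Figure D5:**
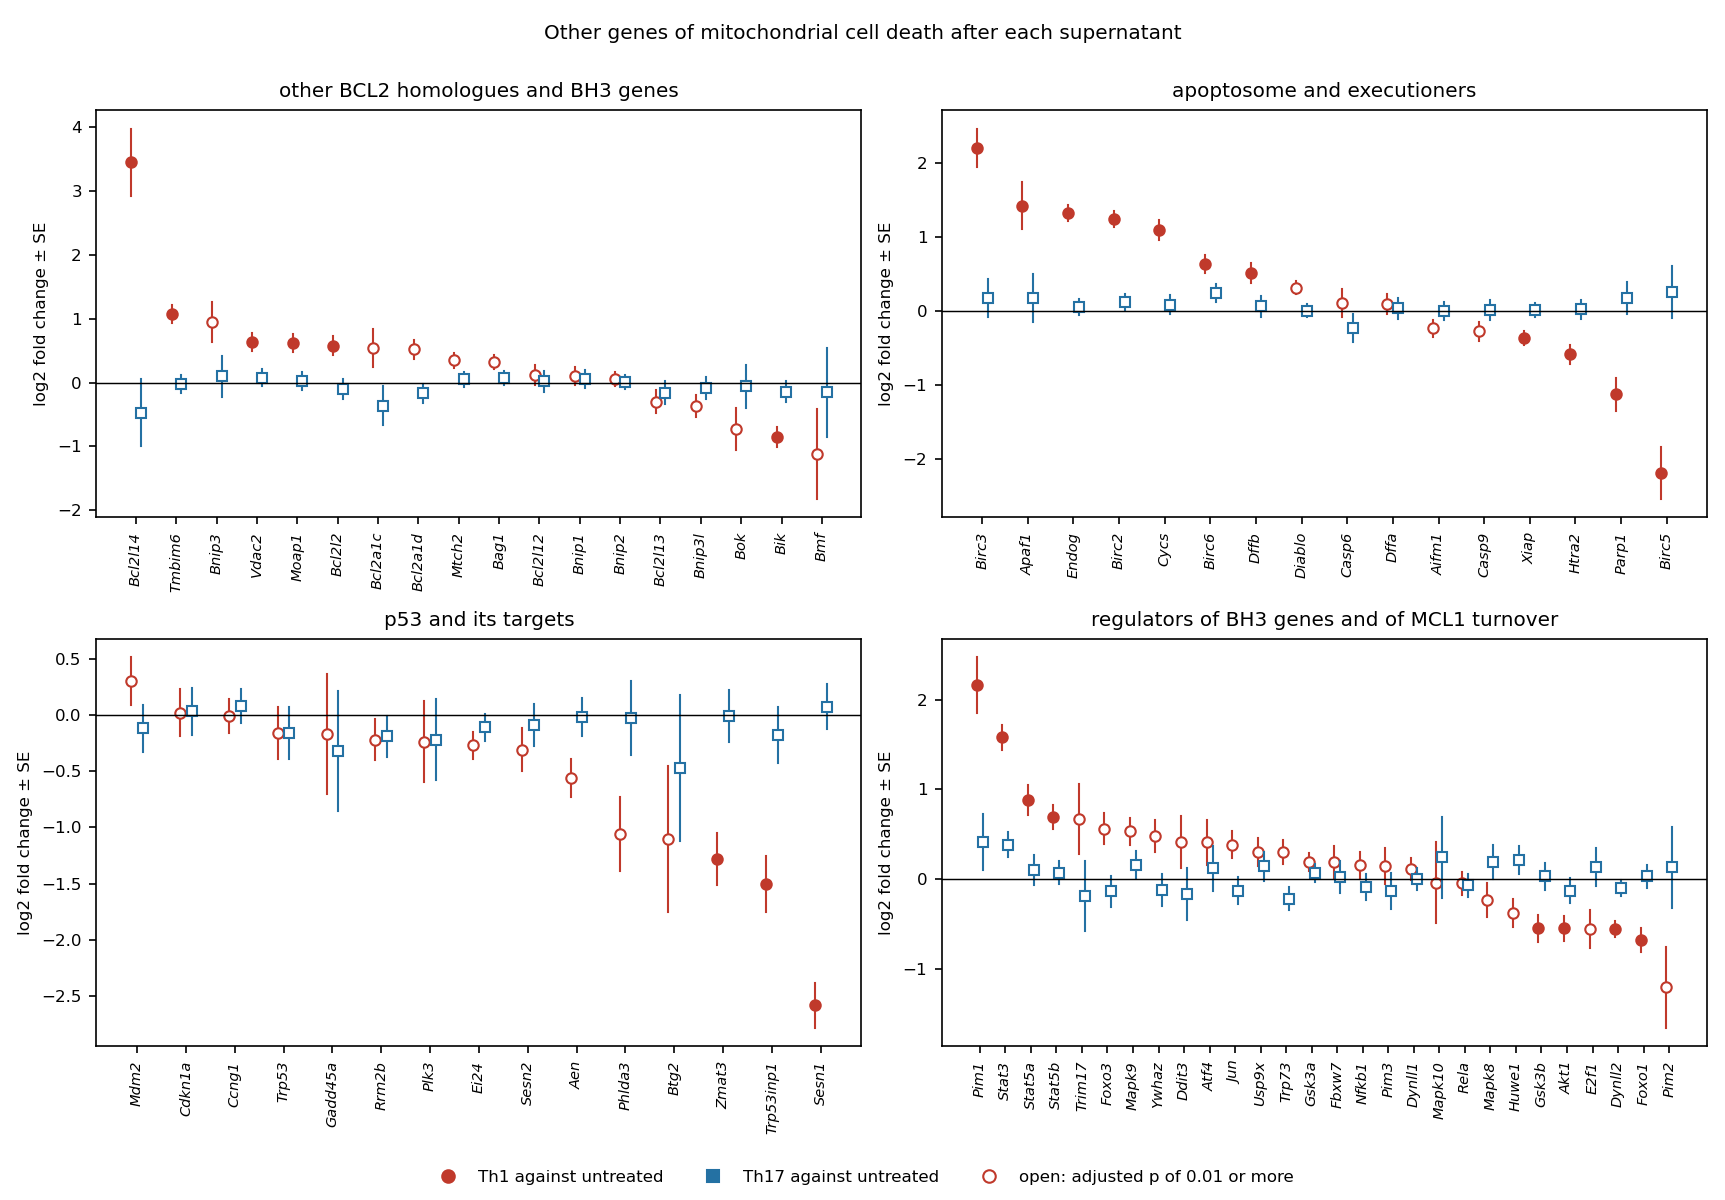
Log2 fold change ± SE (vertical axis) of the genes kept in 4 lists of the wider pathway, for Th1 against untreated (red circles) and Th17 against untreated (blue squares); filled symbols passed an adjusted p of 0.01. Filled red points lie on both sides of 0 in 3 of the lists and below 0 only in the p53 list, and no blue point is filled.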

How the data were processed

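Messenger RNA of primary mouse microglia was measured on 12 one-colour Agilent arrays, 4 in each of 3 groups (Th1, Th17, untreated), grouped by the labels. The authors deposited, for each array, scanner output of Feature Extraction 10.7.3.1, whose processed signal is a background-corrected Cy3 intensity on a linear scale, and a value table whose deposited log2 values matched the scanner intensities after 75th percentile scaling and centring on each probe's median. The number of arrays, not a read depth, limits precision.

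After the methods of the study, spots of 1 probe were combined as a geometric mean (103 to 230 spots were left out per array), quantile normalised over 12 arrays, scaled to a 75th percentile of 1500, floored at 15 and put on the log2 scale. Of 39429 probes, 24286 were well above background on at least 4 arrays; the brightest such probe stood for each of 19801 genes, 13952 of them with a symbol. Signals of different probes are not comparable in level. limma 3.58.1 (R 4.3.3) fitted 1 mean per group over 12 arrays, with Benjamini-Hochberg adjustment over all genes, and was tested on simulated data. A gene passed at an adjusted p under 0.01. The independent cultures behind the experiment numbers are stated in the series' design; same-numbered arrays deviated together (12 correlations, 0.245 to 0.633; the other 36 pairs -0.422 to 0.123), so the numbers pair the arrays. Promoters are from RefSeq (GRCm38.p6).

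Alternatives covered scaling, background correction, floor, filter, probe choice, blocks, samples and single arrays. The background alternative used the median signal and the median background of each spot. All 10 members are named with all probes; other genes are the passing genes of the lists, at most 6 over 2-fold per list plus those needed for small counts, and Cycs and those that did not pass (Casp9, Trp53, Cdkn1a, Mdm2, Bcl2a1c, Bcl2a1d) were chosen after their values were seen. Some genes of the apoptosome list are not reported here and are left out of its counts. The members and lists were chosen with earlier results of these data known.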

Additional observations from a re-analysis of the deposited data

Results flagged for a closer look

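3 of 30 sets of 4 arrays, 1 for each gene and group, held an array far from the other 3 by Dixon's ratio (the gap to the nearest array over the whole range) above its 95% critical value. Chance alone gives about 1 in 20. All 3 lay in the Th1 group, each in another experiment. Bcl2l11 was high on the Th1 array of experiment 14 (495.3 units, ratio 0.849). Bad was low on the Th1 array of experiment 12 (13580 units, ratio 0.858). Pmaip1 was low on the Th1 array of experiment 13 (1934 units, ratio 0.84), where the Th17 and untreated arrays of that experiment were the lowest of their groups too.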

How the results depend on the processing

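Across all alternatives and single arrays left out, 765 of the values for single members kept their direction and side of the threshold, 33 changed sign, 9 came to pass and 3 ceased to. The rises of Bcl2, Bak1 and Bid with Th1 supernatant passed under each alternative. Without 1 array at a time they ranged from 1.13 to 1.47, from 1.36 to 1.51 and from 0.85 to 1.02. Bax in Th1 against untreated did not pass under 75th percentile scaling (-0.16), in the deposited value table (-0.16, adjusted p = 0.159) or without experiment 14 (-0.39, adjusted p = 0.0188), and Mcl1 passed in the value table too (0.40, limma, adjusted p = 0.00669). With a floor of 50, Bax passed in Th1 against Th17 (-0.26, limma, adjusted p = 0.00777). Bcl2l11 passed without experiment 14 or its Th1 array in both Th1 comparisons. Experiment as a replicate block brought Bcl2l11 to pass in Th1 against untreated and in Th1 against Th17 and changed no other call of a member. Counts over all genes stayed within 1.5 times of their values, except that normexp background correction gave 955 genes over 2-fold lower in Th1 against untreated (1560 otherwise) and 954 in Th1 against Th17 (1566 otherwise). In Th17 against untreated 0 genes passed under each alternative, the block included.

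Sign changes came only among values that did not pass. Leaving out 1 array moved the pro-survival minus pro-death difference within 0.26 to 0.64 for Th1 against untreated and within -0.07 to 0.31 for Th17 against untreated. In Th1 against Th17, Bax was 0.03 under 75th percentile scaling and 0.03 in the value table, and Bcl2l1 was 0.26 and 0.26 there, 0.0032 with normexp, 0.13 with slide as a block, 0.11 with the mean of both probes and 0.13 without experiment 16, a setting chosen after seeing the data. Bcl2l1 in Th1 against untreated was -0.03 without experiment 14. Bad in Th17 against untreated was -0.0043 under 75th percentile scaling, -0.0029 in the value table, -0.02 with normexp, -0.02 with the mean of both probes and -0.0049 without experiment 16. The cause was not tested. Without 1 array at a time, Th1 against untreated ranged from -0.06 to 0.43 for Bcl2l1, from -0.17 to 0.01 for Bbc3 and from -1.50 to -0.90 for Bcl2l11. Th17 against untreated ranged from -0.28 to 0.06 for Bcl2, from -0.03 to 0.45 for Bcl2l1, from -0.02 to 0.08 for Bad, from -0.04 to 0.13 for Bid, from -0.37 to 0.02 for Bcl2l11 and from -0.23 to 0.08 for Pmaip1. Th1 against Th17 ranged from -0.14 to 0.17 for Bcl2l1, from -0.27 to 0.05 for Pmaip1 and from -1.29 to -0.75 for Bcl2l11.

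With 4 arrays a group, the 95% interval of a member spanned from 0.39 to 1.54 log2 units, so small changes could not be seen, least of all in Bcl2l11. Messenger RNA says nothing of protein, cleavage or cell death, and a supernatant holds many factors.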
